A study of Mus musculus with 12 samples.

Results

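Lung RNA of pregnant mice (dams) and of prenatal offspring was measured on Agilent arrays, and 203 of 41174 probes separated all 6 offspring arrays from all 6 dam arrays, whichever air the dams had breathed. Of these probes 62 were higher and 141 were lower in offspring. They were selected on the same log2 values that are described here, so their difference between the stages is a description and is given with no test. A probe was kept when no offspring value overlapped a dam value, when the mean difference was at least 1.5-fold, when smoke and air offspring differed by less than 2-fold, and when the mean of the brighter stage was above about 5.0% of the 75th percentile of its array. All values are given as a percentage of that 75th percentile, which served to scale the arrays.

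The dams were mature pregnant female mice of a strain written B6C6F1, and the offspring were prenatal females of the same strain. Dams breathed mainstream smoke of 3R4F research cigarettes, 1 part in 50 with filtered air, for 4 hours a day on 5 days a week over 18 days of gestation, or breathed filtered air. Each of the 4 groups (dams in smoke, dams in air, offspring in smoke, offspring in air) had 3 arrays of lung RNA, described as biological replicates. The labels give no age and do not say which offspring shared a litter or a dam with others. The offspring arrays may therefore not be independent, although the tests treat them so. The spread between arrays may also in part be technical.

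Around birth the mammalian lung turns from a fluid-filled, growing organ of thin-walled sacs into one that exchanges gas. The adult lung keeps mature alveoli, a surfactant layer and resident immune cells, and pregnancy adds its own changes to the circulation of the dam. Development, pregnancy and age of the animal cannot be told apart here, and in whole tissue fewer cells of a type cannot be told apart from less RNA per cell. The deposited table pairs no probe with a gene, and 0 identifiers matched the gene table used here. The probes are therefore given by identifier, the 19 lists of lung cell types and pathways could not be read, and the tissue label was not checked against its markers.

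The arrays differed in ways that touch these probes. Raw intensity at the 75th percentile was lowest on replicate 2 (491) and replicate 3 (549) of the smoke offspring and 839 to 1164 elsewhere. The first principal component over the 28200 probes tested held 54.5% of the variance. On it the offspring smoke arrays scored 73.3 to 83.5, and dams smoke replicate 3 (12.3) and offspring air replicate 2 (-11.5) stood apart from their groups, whose other arrays scored -43.3 to -30.3. The signal of 6 E1A spike-in controls over the 75th percentile was 1.60 to 4.22 on the offspring arrays (median 3.33, n = 6) and 1.52 to 2.76 on the dam arrays (median 1.71, n = 6). It was higher in offspring by 0.68 on the log2 scale, with an exact permutation p of 0.0238 (two-sided, n = 6 each). The permutation pooled smoke and air arrays within each stage. The ratio was 3.42 to 4.22 in smoke offspring, above all dams, and 1.60 to 3.23 in air offspring, which overlapped the dams. Its part in the separation was not tested.

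Most separated probes that were higher in offspring differed by less than 1.5-fold, whereas 182 of the 344 lower ones reached that size. All 6 offspring values lay above all 6 dam values at 383 probes, 0.930% of the array, and below them at 344 probes, 0.835%. The minimum of 1.5-fold removed 303 of the former and 162 of the latter, the brightness threshold 13 and 28, and the limit on the offspring smoke difference 5 and 13. The higher probe just inside the size threshold differed by 1.503-fold and the one just outside by 1.496-fold, and the lower ones by 1.505-fold and 1.490-fold. On the limit for smoke against air in offspring, the higher probes nearest to it differed by 1.83-fold inside and 2.03-fold outside, and the lower probes by 1.996-fold and 2.01-fold. At the brightness threshold the dimmest kept probes read 5.16% (higher) and 5.18% (lower) on their brighter side, and the brightest left out 4.50% and 5.00%.

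The 62 higher probes had a median difference of 0.72 on the log2 scale (1.64-fold) and reached 1.38 (2.60-fold). The 141 lower probes had a median of -0.80 (1.74-fold lower) and reached -4.42, at a probe with 1 offspring array at the floor, so that this size depends on the floor. Over all probes tested the median was 0.04. Differences of at least 2-fold were found at 7 higher and 30 lower probes, and of at least 4-fold at 0 higher and 3 lower probes. The space between the nearest offspring and dam array was narrow, with a median of 0.13 on the log2 scale for higher and 0.15 for lower probes. It was under 0.1 at 27 of the higher and 49 of the lower probes, and at least 0.5 at 1 and 7.

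The count and in part the direction of the higher probes depended on how the arrays were scaled. With scaling to the spike-ins, which moved the median stage difference of all probes tested from 0.04 to -0.61, 37 of the 62 higher probes still had a higher mean in offspring and 2 met the rule. Without scaling that median was -0.24 and all 62 kept their sign. The rule was then met by 8 higher probes, 5 of them among the 62. All 141 lower probes kept their sign under both, but 64 of them met the rule without scaling and 39 with the spike-ins. The remaining 25 higher probes had a mean no longer above that of the dams under spike-in scaling. Relative to the median of all probes, the higher probes lay at 0.68 with the 75th percentile, 0.65 without scaling and 0.64 with the spike-ins. The lower probes lay at -0.84, -0.86 and -0.87. These scalings shift all probes of an array alike, so this position could change only through the floor and the set of probes tested. Its near-constancy therefore says nothing about whether the separation depends on the scaling.

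Measured from the mean of the 6 dam arrays, the median over the 62 higher probes was 0.93, 0.80 and 0.94 on the log2 scale on the 3 offspring smoke arrays and 0.47, 0.69 and 0.52 on the offspring air arrays. On the dam arrays it ran from -0.09 (dams air replicate 3) to 0.10 (dams smoke replicate 3). Over the 141 lower probes it was -0.95, -0.84 and -0.96 for smoke and -0.56, -0.77 and -0.65 for air in the offspring, and on dam arrays it ran from -0.15 (dams air replicate 2) to 0.15 (dams air replicate 3). With this scaling, offspring air arrays stood nearer to the dams than offspring smoke arrays in both directions, and air replicate 1 was the nearest of all.

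Probe A_51_P110381 had the widest difference among the higher probes. Its 3 offspring smoke arrays read 44.6%, 51.7% and 58.6%, and its offspring air arrays 38.5%, 31.3% and 29.3%. Dams in smoke read 13.4%, 12.5% and 24.7%, and dams in air 14.4%, 15.5% and 16.9%. The stages did not overlap, and within the dams replicate 3 in smoke was the highest of the 6. In offspring the 3 smoke arrays all lay above the 3 air arrays. The mean difference between stages was 1.38 on the log2 scale, or 2.60-fold. With spike-in scaling this difference was 0.70.

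Probe A_51_P423948 was the next of the higher probes. Offspring smoke arrays read 20.5%, 18.5% and 21.1%, and offspring air arrays 9.49%, 13.5% and 14.0%. Dams read 5.50%, 6.21% and 6.77% in smoke and 6.36%, 5.41% and 6.62% in air. The dam groups were interleaved, whereas in offspring the air arrays lay between the dams and the smoke arrays. The stage difference was 1.35 on the log2 scale, or 2.55-fold, and 0.67 with spike-in scaling.

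Among the lower probes above the floor on all arrays, A_51_P434758 had the widest difference, and 1 array set its size. Dams in air read 75.8%, 44.0% and 2981%, and dams in smoke 54.3%, 75.9% and 50.6%. Offspring read 18.97%, 24.7% and 17.5% in smoke and 27.8%, 30.0% and 32.3% in air. All 6 offspring arrays were below all 6 dam arrays, but the value of 2981% in dams air replicate 3 stood far above the other dams. The mean difference of -2.20 on the log2 scale became -1.26 without that array.

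Probe A_51_P258493 followed among the lower probes. Dams read 13.4%, 12.4% and 9.32% in smoke and 17.0%, 12.4% and 16.8% in air. Offspring read 4.75%, 1.70% and 3.96% in smoke and 3.53%, 3.71% and 8.02% in air. Smoke and air overlapped within both stages, and the offspring value nearest to the dams was replicate 3 in air. The stage difference was -1.78, or 3.43-fold lower in offspring.

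The widest separation of all was at a lower probe that reached the background floor on 1 array. Its 6 dam arrays read between 183% and 200.1%. The offspring smoke arrays read 9.69%, 7.64% and 9.12%, and the offspring air arrays 9.93%, 65.9% and the floor of 1.16%. The dams were thus tight and the air offspring widely scattered, with replicate 2 the nearest to the dams and still 2.78-fold below them. This was 1 of 37 probes on the array whose values fell into a bright and a dim set more than 4-fold apart with at least 2 arrays in each, and its bright set held the 6 dam arrays and offspring air replicate 2. No higher probe was among the 37. Values at the floor were rare, with 7 such values at 4 lower probes and 0 at higher probes, and no dam array was at the floor.

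Each slide held 2 offspring and 2 dam arrays, so the stages could be compared within every slide, though not within equal exposures. On slide 1, with offspring in smoke and air and dams in smoke, the median difference was 0.70 for higher and -0.76 for lower probes. On slide 2, with offspring in smoke and dams in air, it was 0.85 and -0.92. On slide 3, with offspring in air and dams in both, it was 0.57 and -0.76. Every one of the 203 probes kept its direction on every slide, as the non-overlap of the arrays requires. A difference of at least 1.5-fold was seen within slide 3 at 28 of 62 higher probes, against 49 on slide 1 and 56 on slide 2, and at 91 of 141 lower probes, against 116 on each of the others. Over all probes tested such a difference, in either direction, was seen at 13.3% on slide 3, 12.8% on slide 1 and 36.7% on slide 2.

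With 75th percentile scaling, offspring and dams in air had a smaller median difference at these probes than offspring and dams in smoke. For the higher probes the median difference was 0.62 in air (range 0.31 to 1.08) and 0.86 in smoke (0.47 to 1.71). For the lower probes it was -0.75 in air (-4.40 to -0.28) and -0.89 in smoke (-4.44 to -0.36). Limma called 5 of the 62 higher probes in air, where 0.0426% of all probes tested were called higher, and 61 in smoke, where 25.0% were. It called 11 of the 141 lower probes in air, where 0.110% were called lower, and 129 in smoke, where 21.1% were. The split of calls in smoke over all probes depended on the scaling, with 7037 higher and 5949 lower here, 99 and 10287 without scaling and 31 and 14458 with the spike-ins. In air all 16 calls, and all 43 over the whole array, were lost with either slide or replicate number as a fixed term. Single arrays also moved the 16 calls in air, to 109 without offspring air replicate 1, 91 without dams air replicate 2, 3 without offspring air replicate 3, 0 without dams air replicate 1 or 3, 10 without dams smoke replicate 2 or offspring smoke replicate 2, and 8 without offspring smoke replicate 1 or 3. Calls over all probes moved with them, to 1226 without offspring air replicate 1, 475 without dams air replicate 2 and 16 without offspring air replicate 3. They fell to 0 without dams air replicate 1 or 3 and to 28 without dams smoke replicate 2. Without offspring smoke replicate 1, 2 or 3 they were 17, 24 and 18. The probes were chosen on these values, so nothing is read from these counts.

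With 75th percentile scaling, smoke-exposed offspring lay farther out in the stage direction than air offspring at 53 of 62 higher probes, where 53.4% of all probes tested were higher in smoke, and at 89 of 141 lower probes, where 46.5% were lower. For the higher probes this order turned with the scaling, as the sign did over all probes tested. Without scaling it was seen at 13 of 62, where 16.3% of all probes tested were higher in smoke. With the spike-ins it was seen at 7 of 62, where 10.2% were. For the lower probes the counts were then 136 and 137 of 141, where 83.4% and 89.2% were lower. The 3 smoke arrays lay wholly beyond the 3 air arrays at 33 higher probes, where 31.0% of all probes tested had all smoke arrays above, and at 55 lower probes, where 27.4% had them below. The reverse was seen at 3 and 8. The offspring groups overlapped at the remaining 26 higher and 78 lower probes. The median smoke-minus-air difference in offspring was 0.33 for higher and -0.24 for lower probes, against 0.05 over all probes tested. Without scaling the medians were -0.26 and -0.83 against -0.49, and with the spike-ins -0.38 and -0.95 against -0.59. On slide 1, the slide that held both offspring groups, it was 0.45 and -0.39 between 1 array of each. Limma called 29 of the 62 higher probes as higher in offspring smoke, where 28.1% of all probes tested were, and 49 of the 141 lower probes as lower, where 25.1% were. It called 1 higher probe as lower. Over all probes the calls were 7912 higher and 7079 lower, against 182 and 10213 without scaling and 99 and 9598 with the spike-ins. The rule limits this difference, so these counts are a description.

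The probes with the largest offspring smoke differences show how the limit acts. Probe A_51_P113195, a higher probe, read 457%, 442% and 450.1% on the smoke arrays of the offspring, 227%, 254% and 256% on their air arrays and 148% to 195% on the 6 dam arrays. The air offspring stood between the dams and the smoke offspring, and the difference of 0.87 on the log2 scale was 0.16 with spike-in scaling. Probe A_52_P575020, a lower probe, read 15.5%, 17.9% and 15.6% with smoke and 25.5%, 35.5% and 38.3% with air in offspring, against 39.2% to 63.1% in dams. Its highest air offspring was just under the lowest dam. Probe A_51_P176474 had the same order, with 28.1%, 32.2% and 30.7% under smoke, 68.4%, 51.4% and 62.4% under air, and 71.2% to 129% in dams. Probe A_51_P164296 differed the other way for a lower probe, at 41.5%, 42.6% and 41.3% in smoke and 54.2%, 13.9% and 12.8% in air, against 55.8% to 90.9% in dams. There air replicate 1 was above the smoke arrays and the other air arrays below them, so the offspring groups overlapped.

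The arrays that set the boundary were few. The offspring array nearest to the dams was an air array at 56 of 62 higher and 112 of 141 lower probes. It was offspring air replicate 1 at 27 and 64 of them and offspring air replicate 3 at 21 and 36. The dam array nearest to the offspring was dams smoke replicate 3 at 21 higher and 48 lower probes and dams air replicate 2 at 18 and 52. At the lower probes dams air replicate 3 was the dam array farthest from the offspring at 64 of 141.

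Leaving out 1 array and applying the rule to the other 11 showed how far the left-out array kept the same side. Without offspring air replicate 1 the rule kept 223 higher and 352 lower probes, and that array lay beyond all dams at 78 and 148 of them. Without offspring air replicate 3 the rule kept 199 and 229 probes, with the array on the same side at 77 and 154. Without dams smoke replicate 3 it kept 110 and 246, with 70 and 150 on the same side, and without dams air replicate 2 it kept 117 and 211, with 68 and 156. For offspring smoke replicate 1 the numbers were 51 of 52 and 136 of 137, and for offspring smoke replicate 3 they were 48 of 49 and 133 of 137. Without both arrays that stood apart on the first component, dams smoke replicate 3 and offspring air replicate 2, the rule kept 131 higher and 242 lower probes.

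Smoke against air in dams was the comparison that the rule did not use, although dam values entered the non-overlap, and it asked whether these probes also followed exposure in the adult lung. Limma called 0 of the 203 probes, where 0% of the 28200 probes tested were called. An unadjusted p under 0.05 was seen at 0 of 62 higher and 15 of 141 lower probes, where 4.13% of all probes tested had one. Without dams smoke replicate 2 limma called 1 of the 203 and 7 of all 28200, and with array weights it called 14 and 1014.

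The 2 probes with the smallest p in dams were named in each direction, so that both directions appear by choice. All were lower probes, and none passed the test. The unadjusted limma p was 0.00034 and 0.00039 at the 2 that were higher in smoke, farther from the offspring. It was 0.0145 and 0.0201 at the 2 that were lower in smoke. Probe A_51_P277994 read 86.5%, 64.3% and 70.4% in dams smoke and 44.5%, 45.8% and 49.2% in dams air. All 3 smoke dams were above all 3 air dams and farther from the offspring, which read 28.2% to 36.5%. On the log2 scale smoke dams exceeded air dams by 0.66 (standard error, SE, 0.13), and the limma adjusted p was 0.435. Probe A_51_P179789 read 12.96%, 12.9% and 16.2% in dams smoke and 9.71%, 9.96% and 8.29% in dams air. These groups did not overlap either, and the difference was 0.58 (SE 0.12), for which limma gave an adjusted p of 0.435.

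At the other named lower probes the smoke dams were nearer to the offspring. Probe A_51_P497993 read 226%, 287% and 250.2% in dams smoke and 328%, 299% and 379.6% in dams air, and 137% to 217% in offspring. Smoke minus air in dams was -0.40 (SE 0.14), with a limma adjusted p of 1. Probe A_52_P546363 read 118%, 107% and 104% in dams smoke and 133%, 132% and 134% in dams air, so that smoke minus air was -0.28 (SE 0.10), also with a limma adjusted p of 1. The dam groups did not overlap at either probe, and neither difference passed the test.

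With 75th percentile scaling the mean of the smoke dams was more often on the offspring side of the air dams than not. With the spike-ins this order turned for the higher probes (10 of 62, where 11.2% of all probes tested were higher in smoke). The mean of the smoke dams was above that of the air dams at 43 of 62 higher probes, where 47.5% of all probes tested were, and below it at 104 of 141 lower probes, where 52.0% were. The median differences were small, at 0.03 for higher and -0.09 for lower probes, against -0.01 over all probes tested. With the spike-ins they were -0.17 and -0.29 against -0.20. Below 0 were then 126 of 141 lower probes, where 88.7% of all probes tested were. Without scaling the counts were 54 of 62 and 72 of 141, where 67.6% and 32.2% of all probes tested were above and below 0. With 75th percentile scaling and each dam array left out in turn, the counts ran from 34 to 46 of the higher and from 79 to 107 of the lower probes. The lowest were 34 without dams smoke replicate 3 and 79 without dams air replicate 3. Over all probes tested, 46.7% to 48.8% were then above 0 and 50.5% to 52.6% below it. On slide 3, the slide that held both dam groups, dams smoke replicate 3 was compared with dams air replicate 3. Smoke minus air was above 0 at 50 higher and below 0 at 107 lower probes. Over all probes tested, 49.5% were above 0 and 48.2% below it. Dams smoke replicate 3 also had the highest spike-in ratio of the dams, 2.76, and its part in these counts was not tested.

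The difference between the smoke effects of offspring and dams passed the limma threshold at 45 of the 203 probes, 13 of them higher and 32 lower probes. The count was 25 without dams smoke replicate 2 or offspring smoke replicate 3, where 3072 and 3907 of all probes tested were called. It was 26 without dams air replicate 1 (3242) and 27 without dams smoke replicate 1 (3230). With the slides as fixed terms, or with spike-in scaling, it was 0. The share of 22.2% was close to the 23.7% of all probes tested. The offspring part of this difference was limited by the rule, and nothing further is read from it.

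Brightness and probe series, which describe the probes rather than the lungs, were also compared. All probes tested were split by mean signal into 4 equal classes. From the dimmest to the brightest, these held 10, 25, 18 and 9 of the higher probes and 21, 69, 32 and 19 of the lower probes. The brightness threshold of the rule bears on the dimmest class. Identifiers of the A_51 series made up 53.2% of the 203 probes and 46.6% of the array. For the lower probes the SD between replicates had a median of 0.191 in dams air and 0.205 in offspring air. It was 0.128 and 0.204 over all probes tested, and 0.148 and 0.180 for the higher probes. In dams smoke and offspring smoke it was 0.148 and 0.129 for lower and 0.149 and 0.129 for higher probes. Over all probes tested it was then 0.153 and 0.122.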

How the data were processed

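The deposited table held linear intensity values of 41267 probes on 12 arrays (93 controls, 0 missing). Per the labels' protocols, the lung sample was labelled with Cy5 and a mouse universal reference with Cy3, whereas the scan names carry a 1-colour code. Which channel the values hold, their background subtraction and their direction against the reference are not given in the sources used here; 75th percentiles of 491 to 1164 show values not scaled between arrays. Each array was divided by its 75th percentile over 41174 probes, floored at 1.16% of it and converted to log2, on which differences of dim probes are understated. The probes and lists were chosen with earlier results of these data known. Limma 3.58.1 in R 4.3.3 (lmFit, eBayes, 1 mean per group, 8 residual degrees of freedom) tested 28200 probes (3 or more arrays above the floor), with two-sided p-values adjusted by Benjamini-Hochberg over all of them and a threshold of 0.05. Python 3.11.15 served for the rule and summaries, with scipy 1.17.1, pandas 2.3.3 and numpy 2.4.6. Simulated data with known answers served to check the code of the rule and the fit. They held no slide or scaling effects between arrays, so they do not bear on the separation itself. Named probes were the 2 widest per direction above the floor on all arrays, the 2 smallest p per direction for dam smoke, and the 2 largest offspring smoke differences per direction. Arrays were compared for duplicates (at most 1 identical value in a pair, highest r 0.997 across probes), and all were counted. Alternatives were other scalings, floors, thresholds and filters, slide and replicate number as blocks, array weights, and each array left out. The number of arrays limits the precision.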

Additional observations from a re-analysis of the deposited data

Results flagged for a closer look

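The difference of the smoke effects between offspring and dams was called at 45 of the 203 probes, a share close to that of all probes tested. None of these calls held with slide as a fixed term or with spike-in scaling (0 under either, against 42 and 15 of all probes). Among the probes named above, those called were A_51_P423948 (0.72 on the log2 scale, larger in offspring), A_51_P113195 (0.83), A_52_P575020 (-0.69), A_51_P277994 (-0.63) and A_51_P179789 (-0.51). At A_51_P277994 and A_51_P179789 the dam groups stood apart and the offspring groups overlapped, whereas at the other probes the offspring groups stood apart. The choice of probes limits the offspring part of each value.

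Control spots lie outside the comparisons. Relative to the 75th percentile, the E1A spike-in signal of smoke offspring exceeded that of air offspring by 0.71 (log2).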

How the results depend on the processing

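With 75th percentile scaling 62 higher and 141 lower probes met the rule. The higher count was 8 without scaling, and with spike-in scaling the counts were 2 and 303. It was 97 with slide means removed. A 2-fold minimum gave 7 and 30, no minimum 358 and 296, and leaving out both arrays that stood apart (chosen after seeing the data) 131 and 242. Leaving out 1 array gave 49 to 223 higher and 137 to 352 lower probes. Median scaling and quantile normalization kept 44 and 51 of the 62 higher and 106 and 116 of the 141 lower probes, no scaling 5 and 64, and spike-in scaling 2 and 39.

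For smoke in dams the calls among the 203 probes were 0, and 0 to 1 with an array left out. They were 1 without scaling (12 over all probes tested) and 14 with array weights (1014). For smoke in offspring they were 79 (14991 over all probes tested), and 61 to 85 (12482 to 15228) with an array left out. For the difference of smoke effects they were 45 (6675 over all probes tested), with 0 (42) for slide as a fixed block. They were 0 (15) with spike-in scaling, 91 (14573) with array weights and 25 to 55 (3072 to 8922) with an array left out. For offspring against dams in smoke they were 190 (12986 over all probes tested), and 164 to 195 (9457 to 13971) with an array left out. In air they were 16, with 0 for slide as a fixed block, 9 without scaling, 27 with spike-in scaling, 64 with a doubled floor, 47 for probes above the floor on all arrays, 51 with a trended robust spread, 176 with array weights and 0 to 109 with an array left out. The causes were not tested.

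Replicate numbers were shared by the groups, but the deviations of same-numbered arrays correlated between -0.334 and 0.217, over 0.1 in 2 of 18 pairs, so they were not treated as pairs. With the replicate block the calls were 0 for smoke in dams, 76 for smoke in offspring and 36 for the difference of smoke effects. For offspring against dams they were 0 in air and 182 in smoke. Over all probes tested the counts were, in the same order, 0, 14088, 4673, 0 and 12001. Removing replicate means as a block gave 89 higher and 175 lower probes by the rule. Values at the floor give no order between arrays.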
